A study of Mus musculus with 9 samples.

Results

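The unfolded protein response of the endoplasmic reticulum (ER) was followed through 10 of the 35275 genes in the processed table, taken as the rows whose gene name is Ern1, Atf6, Xbp1, Hspa5, Hsp90b1, Dnajb9, Sdf2l1, Pdia4, Herpud1 or Edem1. All 10 were found, each in 1 row, and all 10 were among the 13082 genes that passed the filter on low counts. The RNA came from C57Bl/6 mouse embryonic fibroblasts (MEFs), connective tissue cells grown in DMEM with fetal bovine serum, and carried no other genetic change in the labels. Of 9 polyA RNA-seq libraries, 3 were from control cells in iso-osmolar medium, 3 from cells given 200 mM sucrose (500 mOsm, low-intensity hyperosmotic stress) and 3 from cells given 300 mM sucrose (600 mOsm, high-intensity stress), both for 3 h by the study's methods. No source used here says that the 3 libraries of a treatment were separate cultures, so the p-values measure only the spread between these libraries, which may be technical. Whether a lower value reflects fewer cells that express a gene or less RNA per cell cannot be told apart in bulk RNA.

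Proteins that fold poorly in the ER draw the chaperone BiP, the product of Hspa5, away from 3 kinds of sensor in the ER membrane. The sensor IRE1, made from Ern1, is a kinase and nuclease that removes an intron from Xbp1 mRNA so that it encodes an active transcription factor, ATF6 is cut in the Golgi to release another, and PERK slows translation by phosphorylating eIF2α. The factors XBP1 and ATF6 raise genes for ER chaperones, disulfide isomerases and ER-associated degradation, which returns unfolded proteins to the cytosol for the proteasome. In secretory cells such as fibroblasts, which export collagen, many of these genes are also active without stress.

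The best known DNA element of these genes is the ER stress response element (ERSE), read as CCAAT, 9 free bases and CCACG, through which ATF6 acts together with NF-Y. RefSeq promoter windows of 300 bases (250 before and 50 from the start onwards, build GRCm38.p6, the assembly also called mm10) were available for 9 of the 10 genes, all but Atf6. They are shown for the genes whose windows held an ERSE, a relaxed ERSE (CCAAT, 9 free bases, CCA, which every ERSE also contains) or an ERSE-II (ATTGG, 1 free base, CCACG), with all matches in capitals, on either strand. These 4 stretches, read 5′ to 3′ on the strand of the gene, are chr2:34771980-34772060 (plus strand) for Hspa5, chr10:86705524-86705664 (minus) for Hsp90b1, chr8:94386309-94386428 (plus) for Herpud1 and chr6:47813582-47813632 (minus) for Pdia4.
Hspa5: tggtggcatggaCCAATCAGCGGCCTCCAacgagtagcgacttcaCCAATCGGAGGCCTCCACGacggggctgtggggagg
Hsp90b1: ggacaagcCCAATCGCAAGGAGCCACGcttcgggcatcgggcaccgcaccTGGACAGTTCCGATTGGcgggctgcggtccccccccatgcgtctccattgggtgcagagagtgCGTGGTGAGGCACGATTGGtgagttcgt
Herpud1: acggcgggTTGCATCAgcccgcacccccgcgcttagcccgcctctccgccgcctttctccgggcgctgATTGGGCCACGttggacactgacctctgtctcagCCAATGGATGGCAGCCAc
Pdia4: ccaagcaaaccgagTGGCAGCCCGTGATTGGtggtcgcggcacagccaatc

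Hspa5 held 1 ERSE, from 65 to 47 bases before the start, and Hsp90b1 held 2, at 212 to 194 and 107 to 89 bases before it. Among 32851 windows of all genes, 0.119% held an ERSE, 1.09% a relaxed ERSE and 0.0365% an ERSE-II. Herpud1, which held the ERSE-II at 52 to 42 bases before the start, also had the first capital stretch, a C/EBP-ATF composite site (TGATG, 1 free base, AA) that 3.97% of windows held. The core of the UPR element bound by XBP1 (TGACG followed directly by TGG), present in 0.676% of windows, was in none of the 9. Except for that of Hspa5, which lies inside the annotated gene span, the printed stretches are upstream of the annotated genes.

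The windows of the genes with the largest changes, Xbp1 and Dnajb9, held none of these ER stress elements. The 120 bases before the start are shown for both, at chr11:5520521-5520640 (plus strand) for Xbp1 and chr12:44210069-44210188 (minus) for Dnajb9, with capitals for the tonicity element core TGGAAA, the letters read by the osmotic stress factor TonEBP.
Xbp1: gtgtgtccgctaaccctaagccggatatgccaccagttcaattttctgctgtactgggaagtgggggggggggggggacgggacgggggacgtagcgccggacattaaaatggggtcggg
Dnajb9: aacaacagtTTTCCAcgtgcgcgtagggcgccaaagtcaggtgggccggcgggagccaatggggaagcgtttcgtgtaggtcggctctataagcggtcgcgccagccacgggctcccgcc
A tonicity core was present in 21.4% of all windows. It was found in Dnajb9 and Sdf2l1, in both from 111 to 106 bases before the start, and in Xbp1 after the start. A match is a run of letters and not a measured binding site.

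**Figure D1:**
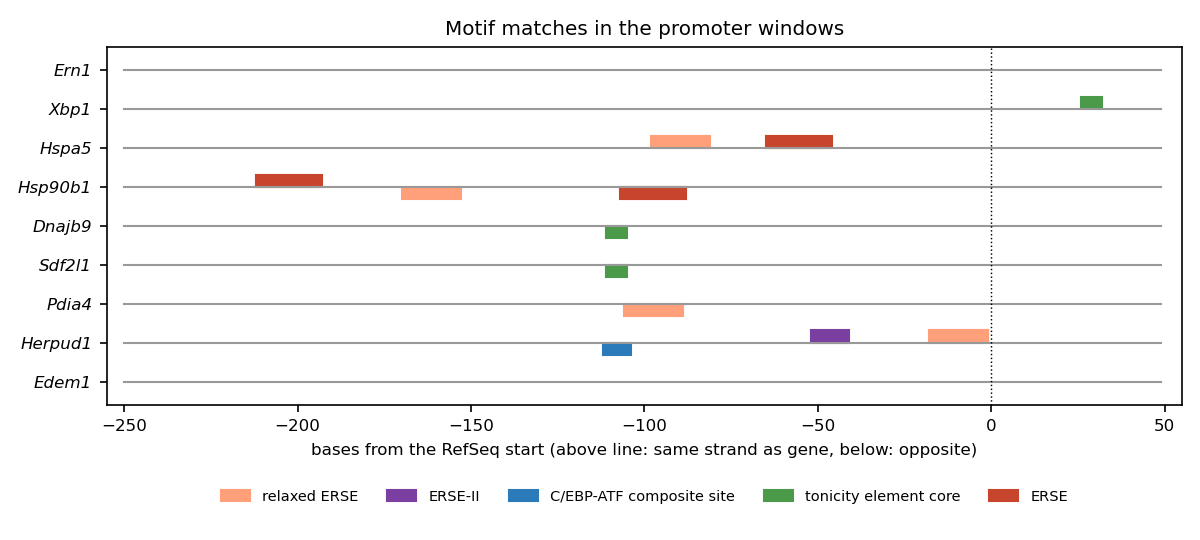
Motif matches in the promoter windows of 9 genes, drawn by distance in bases from the RefSeq start (dotted line), above the line on the strand of the gene and below it on the opposite strand. ERSE matches lie in Hspa5 and Hsp90b1, the ERSE-II in Herpud1, and the windows of Ern1 and Edem1 hold no match.

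The libraries held 21716042 to 26740832 counts, of which the 10 genes took between 0.0888% and 0.114%. The 8 fibroblast markers were all present, with a summed level of 4323 to 4962 FPKM (counts scaled by gene length and library total). Their sum was 4438 to 4584 FPKM in iso-osmolar, 4323 to 4499 at 500 and 4860 to 4962 at 600 mOsm libraries. It was thus higher at 600 mOsm than in the other treatments, without overlap. Summed markers of other cell types were lower, but Cd14, a macrophage marker, had a mean of 11.45 FPKM. That was above the fibroblast markers Col3a1 (5.8 FPKM) and Pdgfra (4.29 FPKM). Of the other macrophage markers, Csf1r was at 2.53, Cd68 at 1.23 and Ptprc at 0.0161 FPKM. The summed levels of 3 lists of other cell types moved with treatment without overlap between iso-osmolar and 500 mOsm libraries. Over the 4 macrophage markers in the table, led by Cd14, the sum was 17.8 to 18.9 FPKM in iso-osmolar, 11.5 to 12.8 at 500 and 14.4 to 16.7 at 600 mOsm libraries. Over 4 endothelial markers, mostly Pecam1 and with Tie1 at 0 throughout, it was 0.202 to 0.246, 3.26 to 3.72 and 0.55 to 0.901 FPKM. Over 4 epithelial markers, mostly Cdh1 and with Krt5 at 0 throughout, it was 0.0271 to 0.081, 0.787 to 0.863 and 0.0561 to 0.0878 FPKM. The part of these markers' cells in the results was not tested.

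On the FPKM scale, which corrects for gene length, the levels of the 10 genes in iso-osmolar cells ran from Hspa5 at 186 FPKM down to Atf6 at 3.88 FPKM. Pdia4 (55.7 FPKM), Herpud1 (50.6), Sdf2l1 (27.0), Hsp90b1 (23.9), Xbp1 (20.0), Edem1 (14.9), Ern1 (8.12) and Dnajb9 (4.41) lay between, as means of 3 libraries. The ranges of Sdf2l1 and Hsp90b1, of Hsp90b1 and Xbp1, and of Dnajb9 and Atf6 overlapped, so those neighbours were not separated. Hspa5 was highest at every osmolarity and alone held 42.2% to 51.2% of the counts of the 10 genes. Xbp1 moved from the sixth place to the seventh at 500 and at 600 mOsm, below Edem1, and Dnajb9 went from the ninth place to the last at 600 mOsm.

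**Figure D2:**
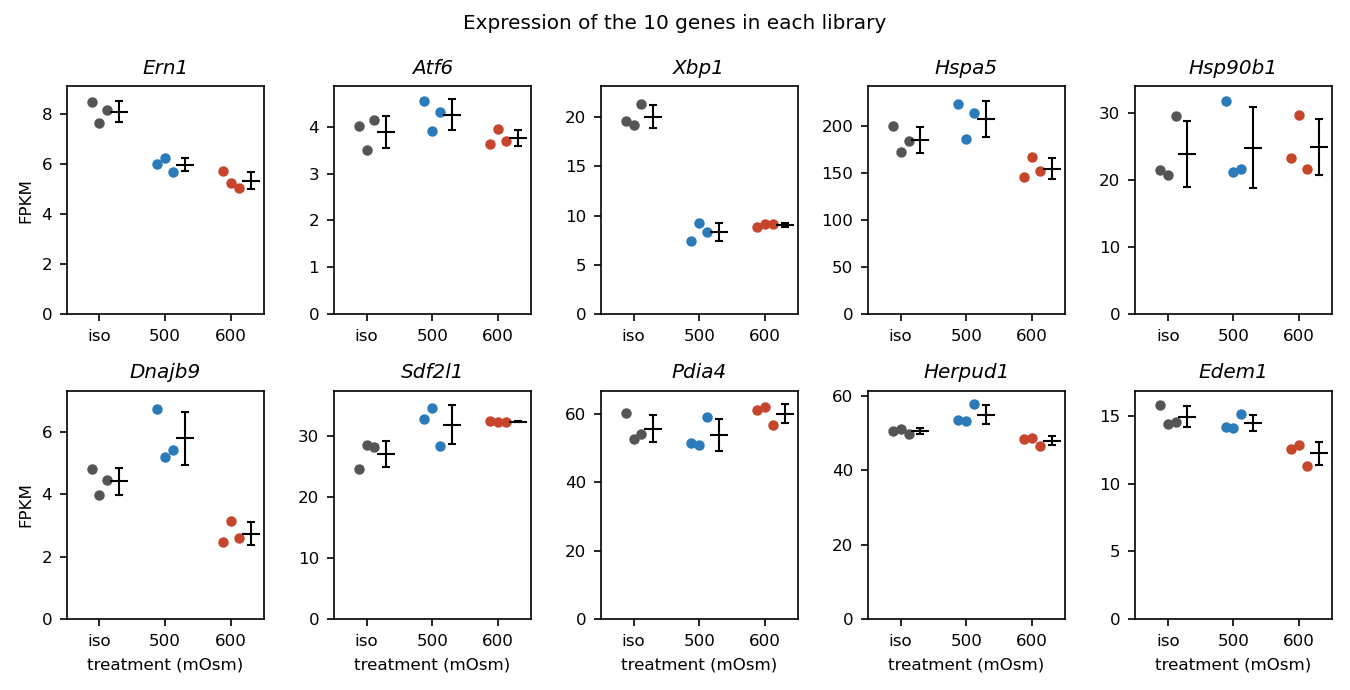
Level of each gene in every library (FPKM, axes from 0), by treatment, with the mean and SD of 3 libraries beside the points. Xbp1 and Ern1 are lower at both osmolarities than in every iso-osmolar library, and Dnajb9 is highest at 500 mOsm and lowest at 600 mOsm.

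To ask how the arms of the response stood at each intensity of hyperosmotic stress, the sensors and their transcription factor were compared first. The transcripts of Ern1 and Xbp1, from the IRE1 arm, fell at both intensities, Xbp1 by the larger factor. Traf2, an adaptor of that arm outside the set, rose, as given below. The ATF6 sensor transcript did not pass the test in any comparison. Xbp1 (chr11:5520659-5525893 in mm10) was at 19.6, 19.1 and 21.3 FPKM in the iso-osmolar libraries, at 7.46, 9.27 and 8.32 FPKM at 500 mOsm and at 8.82, 9.13 and 9.12 FPKM at 600 mOsm. Every stressed library was thus below every iso-osmolar one, and the ranges of the stressed groups overlapped each other. Xbp1 fell by 58.1% at 500 mOsm (log2 fold change -1.26, SE 0.085, adjusted p = 2.76e-07) and fell by 54.2% at 600 mOsm (log2 fold change -1.13, SE 0.085, adjusted p = 7.68e-07), which placed Xbp1 as the 289th and the 366th lowest of the 13082 genes tested. Between the intensities the difference was 0.13 on the log2 scale (SE 0.087, adjusted p = 0.311). The counts are per gene, so they give total Xbp1 mRNA and not the spliced share.

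Ern1 (chr11:106394650-106487852), which encodes IRE1α, was at 8.49, 7.67 and 8.19 FPKM in iso-osmolar libraries. It was at 6.03, 6.24 and 5.71 FPKM at 500 mOsm, and at 5.72, 5.27 and 5.06 FPKM at 600 mOsm. Neither stressed group reached the lowest control. Ern1 fell by 25.9% at 500 mOsm (log2 fold change -0.43, SE 0.066, adjusted p = 0.000276) and fell by 33.2% at 600 mOsm (log2 fold change -0.58, SE 0.067, adjusted p = 2.94e-05). The step from 500 to 600 mOsm, -0.15 on the log2 scale, did not pass (adjusted p = 0.117). The Xbp1 and Ern1 calls against iso-osmolar cells were made in all 9 fits that left out 1 library.

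Atf6 (chr1:170704674-170867771) was at 4.02, 3.50 and 4.13 FPKM in iso-osmolar libraries, 4.54, 3.90 and 4.32 FPKM at 500 mOsm and 3.63, 3.95 and 3.70 FPKM at 600 mOsm. The iso-osmolar range overlapped both others. Its log2 fold changes were 0.13 at 500 mOsm (adjusted p = 0.237), -0.03 at 600 mOsm (adjusted p = 0.832) and -0.16 between them (adjusted p = 0.15). With a correction for the GC content and length of genes, Atf6 was called higher at both intensities, by 0.18 (adjusted p = 0.0278) and 0.22 (adjusted p = 0.0108). That correction also removes treatment differences that follow GC content or length.

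Among the chaperones, the genes of BiP and its cochaperone ERdj4 differed between the intensities. Dnajb9, which encodes ERdj4, a J-protein that hands clients to BiP and also holds IRE1 inactive, rose at 500 mOsm and fell at 600 mOsm. Hspa5 changed in the same directions, but only its fall at 600 mOsm was called. The difference between the intensities passed the test for both genes. Dnajb9 (chr12:44205897-44210068) was at 4.81, 3.97 and 4.45 FPKM in iso-osmolar libraries. It stood at 6.75, 5.19 and 5.42 FPKM at 500 mOsm and at 2.47, 3.15 and 2.60 FPKM at 600 mOsm. These 3 ranges did not overlap. They rest on the smallest counts of the set, 182 to 201, 259 to 306 and 111 to 130.

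Dnajb9 rose by 31.5% at 500 mOsm (log2 fold change 0.40, SE 0.126, adjusted p = 0.0332) and fell by 37.1% at 600 mOsm (log2 fold change -0.67, SE 0.135, adjusted p = 0.00221). Between 500 and 600 mOsm it fell by 52.1% (log2 fold change -1.06, SE 0.132, adjusted p = 6.48e-05), the largest difference of the set in that comparison and the 670th lowest of the genes tested. The 600 mOsm calls held in all 9 fits that left out 1 library. The rise at 500 mOsm did not hold as firmly, with adjusted p-values of 0.12 without iso-osmolar replicate 2, 0.0746 without iso-osmolar replicate 3 and 0.139 without 500 mOsm replicate 1, and 0.0512 in DESeq2.

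Hspa5 (chr2:34771970-34776531), the gene of the main ER chaperone BiP, was at 200.1, 173 and 184 FPKM in iso-osmolar libraries. At 500 mOsm it was at 224, 187 and 214 FPKM, which overlapped the control range, and at 600 mOsm at 146, 167 and 152 FPKM, below every other library. Its log2 fold change at 500 mOsm was 0.17 (SE 0.068, adjusted p = 0.091). At 600 mOsm it fell by 15.4% (log2 fold change -0.24, SE 0.069, adjusted p = 0.0159), and relative to 500 mOsm it fell by 24.7% (log2 fold change -0.41, SE 0.069, adjusted p = 0.000682). The fall against iso-osmolar cells was lost without iso-osmolar replicate 1 (adjusted p = 0.0711) or 600 mOsm replicate 1 (adjusted p = 0.0767). At 500 mOsm Hspa5 was called higher without 500 mOsm replicate 2 (adjusted p = 0.0263) and after the GC content and length correction (log2 fold change 0.21, adjusted p = 0.00132).

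Hsp90b1 (chr10:86690209-86705509), which encodes the ER form of HSP90, GRP94, was the most variable of the 10 genes and did not pass in any comparison. It was at 21.5, 20.7 and 29.5 FPKM in iso-osmolar libraries, 31.7, 21.2 and 21.6 FPKM at 500 mOsm and 23.3, 29.6 and 21.7 FPKM at 600 mOsm. One library in each treatment stood above the other 2, and the treatments overlapped throughout. The log2 fold changes were 0.06 (SE 0.165, adjusted p = 0.84), 0.07 (SE 0.165, adjusted p = 0.763) and 0.02 (SE 0.165, adjusted p = 0.954) for 500 mOsm, 600 mOsm and the step between them. The gene overlaps 1810014B01Rik on the other strand, whose counts reached 60, and shares up to 273 bases with it and up to 133 with Gm25745, so that some reads could have been counted to another gene.

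Its SD within treatments was 0.27 on the log2 CPM scale, beside a median of 0.12 over all genes tested and 0.04 for Herpud1, the steadiest of the 10. The deviations of the high libraries were 0.32 in iso-osmolar replicate 3, 0.38 in 500 mOsm replicate 1 and 0.24 in 600 mOsm replicate 2. Those same libraries had the most negative slope of expression on GC content within their treatments, -0.05, -0.06 and -0.12 log2 units per 10 points of GC over 13022 genes. Iso-osmolar replicate 1 and 500 mOsm replicate 3 had slopes of -0.04 and -0.05 and Hsp90b1 deviations of -0.14 and -0.19. The part of GC content in this spread was not tested. Without the 3 high libraries the log2 fold changes in the comparisons above were 0.02 (adjusted p = 0.892), 0.12 (adjusted p = 0.228) and 0.10 (adjusted p = 0.337).

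**Figure D3:**
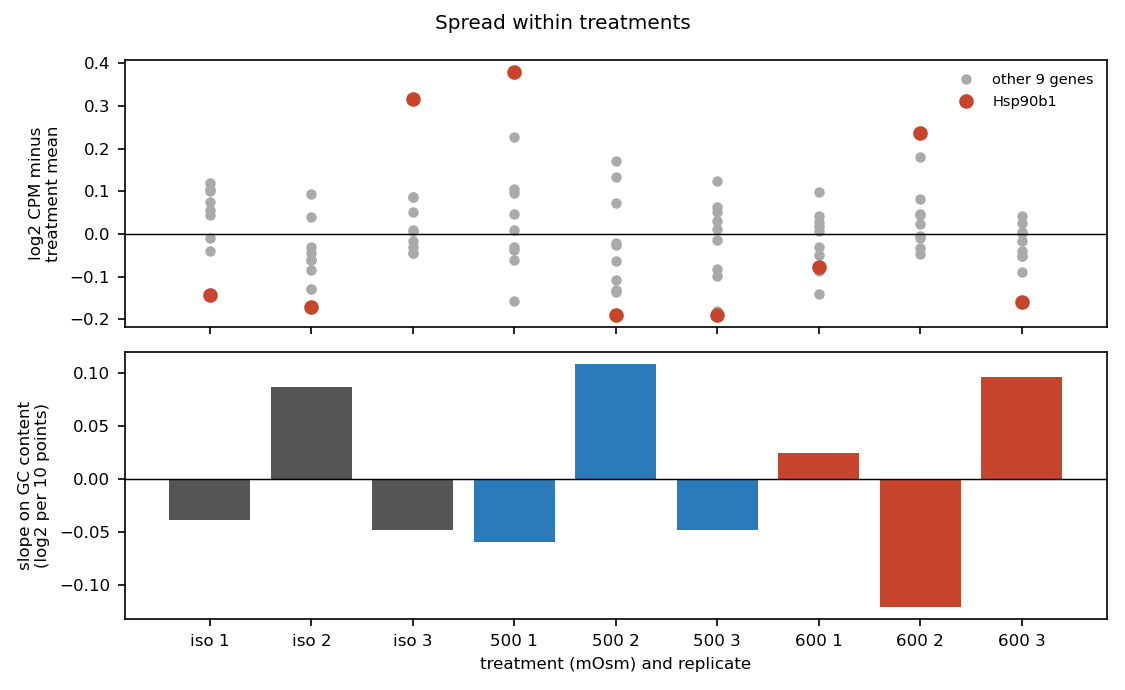
Upper panel, deviation of each gene from its treatment mean (log2 CPM) in every library, with Hsp90b1 in red. Lower panel, slope of all genes on GC content in the same library (log2 per 10 points). Hsp90b1 stands at 0.32, 0.38 and 0.24 in 1 library of each treatment, which is also the one with the lowest slope there.

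Sdf2l1 (chr16:17130138-17132383), a small ER protein that works with BiP and J-proteins, was at 24.5, 28.4 and 28.1 FPKM in iso-osmolar libraries. It reached 32.7, 34.4 and 28.2 FPKM at 500 mOsm and 32.4, 32.2 and 32.3 FPKM at 600 mOsm. All 600 mOsm libraries were above the control range, and 1 of the 3 libraries at 500 mOsm lay within it. The gene rose by 21.0% at 600 mOsm (log2 fold change 0.28, SE 0.088, adjusted p = 0.029), while the value at 500 mOsm was 0.24 (SE 0.088, adjusted p = 0.0638). The call at 600 mOsm was lost without iso-osmolar replicate 1 (adjusted p = 0.116), 600 mOsm replicate 1 (adjusted p = 0.076) or 600 mOsm replicate 3 (adjusted p = 0.0794), and after the GC content and length correction (log2 fold change 0.14, adjusted p = 0.119).

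Pdia4 (chr6:47796142-47813512), a protein disulfide isomerase also known as ERp72, was at 60.2, 52.7 and 54.3 FPKM in iso-osmolar libraries, 51.6, 50.9 and 59.1 FPKM at 500 mOsm and 61.3, 62.2 and 56.9 FPKM at 600 mOsm. The stressed groups each overlapped the control range. Against iso-osmolar cells its log2 fold change was -0.05 at 500 mOsm (adjusted p = 0.649) and 0.13 at 600 mOsm (adjusted p = 0.134), and the 0.18 between the intensities also missed the threshold (adjusted p = 0.0549). The last passed without iso-osmolar replicate 1 (adjusted p = 0.0384) or 500 mOsm replicate 3 (adjusted p = 0.0121) and, at 0.16, after the GC content and length correction (adjusted p = 0.0141).

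Both degradation factors of the set, Herpud1 and Edem1, were lower at 600 than at 500 mOsm by small amounts. Herpud1 (chr8:94386438-94395377), which organizes the HRD1 ligase complex, was at 50.6, 51.3 and 49.8 FPKM in iso-osmolar libraries, 53.6, 53.5 and 58.0 FPKM at 500 mOsm and 48.6, 48.8 and 46.6 FPKM at 600 mOsm. The 3 ranges did not overlap. Relative to 500 mOsm it fell by 11.8% at 600 mOsm (log2 fold change -0.18, SE 0.047, adjusted p = 0.0124), a call that was lost without the filter on low counts (adjusted p = 0.0876). Against iso-osmolar cells its log2 fold changes were 0.12 at 500 mOsm (adjusted p = 0.0706) and -0.06 at 600 mOsm (adjusted p = 0.388).

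Edem1 (chr6:108828641-108859356), a lectin-like protein that directs misfolded glycoproteins to degradation, was at 15.8, 14.4 and 14.6 FPKM in iso-osmolar libraries. It was at 14.2, 14.1 and 15.1 FPKM at 500 mOsm and at 12.6, 12.9 and 11.3 FPKM at 600 mOsm, the last below all other libraries. Edem1 fell by 17.0% against iso-osmolar cells (log2 fold change -0.27, SE 0.057, adjusted p = 0.00282) and fell by 14.6% against 500 mOsm (log2 fold change -0.23, SE 0.056, adjusted p = 0.00908). At 500 mOsm the log2 fold change was -0.04 (adjusted p = 0.641). Both 600 mOsm calls were lost after the GC content and length correction, which left -0.07 (adjusted p = 0.292) and -0.08 (adjusted p = 0.249).

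Counted over the set at 500 mOsm against iso-osmolar, 1 of the 10 genes was higher (Dnajb9) and 2 were lower (Xbp1 and Ern1). Among all genes tested 28.0% were called, 13.2% higher and 14.8% lower, so the share in the set was close to the background. The median log2 fold change of the 10 genes was 0.09, and 0.01 over all genes. After the GC content and length correction 5 of the 10 were called higher (Dnajb9, Hspa5, Atf6, Herpud1 and Sdf2l1) and 2 lower, beside 34.6% of all genes called in that fit, with 17.7% of all genes higher.

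At 600 mOsm against iso-osmolar, 1 gene was higher (Sdf2l1) and 5 were lower (Xbp1, Ern1, Dnajb9, Edem1 and Hspa5), with 35.1% of all genes called, 15.1% higher and 20.0% lower. The median over the set was -0.15 and over all genes 0.01. From 500 to 600 mOsm none of the 10 was higher and 4 were lower (Dnajb9, Hspa5, Edem1 and Herpud1), beside 29.1% of all genes called, 11.9% higher and 17.2% lower, and the median was -0.15. The 3 comparisons share libraries in pairs and are not independent of each other.

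**Figure D4:**
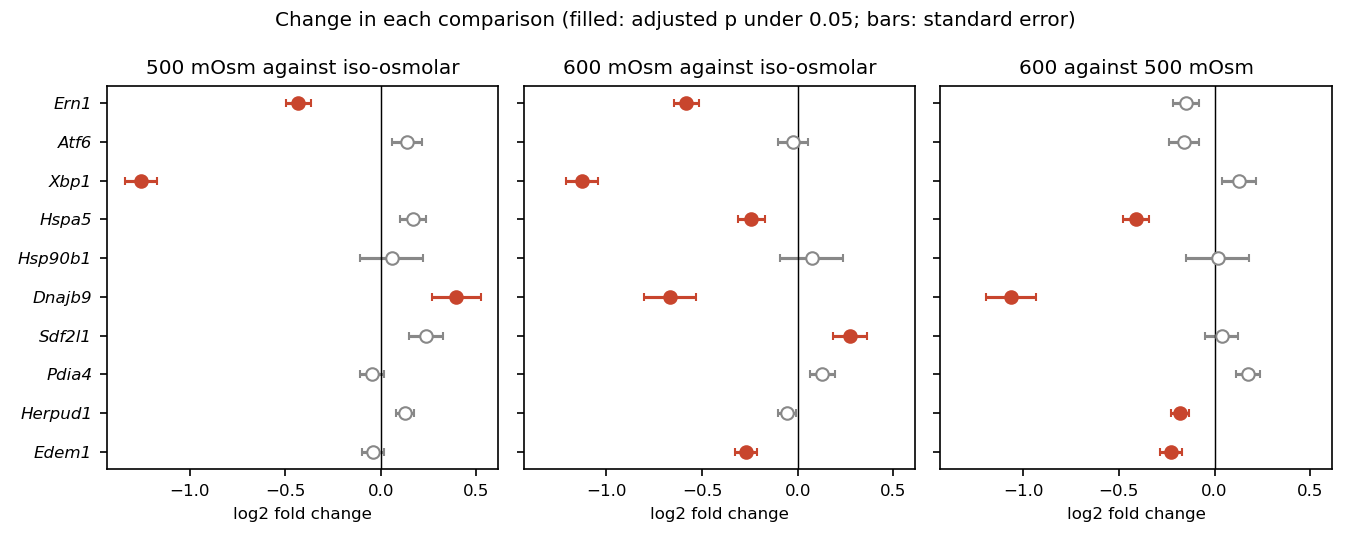
Log2 fold change of each gene in the 3 comparisons with its standard error, filled in red where the adjusted p was under 0.05. Xbp1 stands farthest left against iso-osmolar cells (-1.26 and -1.13) and Dnajb9 between 600 and 500 mOsm (-1.06).

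Genes of the same pathway were read from 6 lists, which include the 10 genes, beside shares of all genes called of 28.0% at 500 mOsm, 35.1% at 600 mOsm and 29.1% between them. Of 16 tested UPR sensors and signalling genes, 1 was higher and 4 lower at 500 mOsm, 1 and 6 at 600 mOsm, and 1 and 3 in the step between them. Creb3l2, which encodes an ER membrane transcription factor activated by cleavage as ATF6 is, fell at both intensities, from 12.5 FPKM to 9.18 at 500 mOsm (log2 fold change -0.44, SE 0.064, adjusted p = 0.000194) and 6.08 FPKM at 600 mOsm (log2 fold change -1.01, SE 0.065, adjusted p = 2.06e-07). Its relative Creb3l1 was at 48.5, 49.1 and 34.3 FPKM at rising osmolarity, with a fall at 600 mOsm against iso-osmolar cells (log2 fold change -0.48, SE 0.056, adjusted p = 3.35e-05). Traf2, an adaptor that binds active IRE1, rose from 14.7 to 23.1 FPKM at 500 mOsm (log2 fold change 0.66, SE 0.049, adjusted p = 6.38e-07) and was at 17.2 FPKM at 600 mOsm (0.24, adjusted p = 0.0023). Eif2ak3, the gene of PERK, fell from 4.96 to 3.71 FPKM at 500 mOsm (log2 fold change -0.41, adjusted p = 0.00103) and to 4.06 FPKM at 600 mOsm (-0.27, adjusted p = 0.0146).

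Of 42 tested ER chaperones and folding enzymes, 5 rose and 2 fell at 500 mOsm, and 13 rose and 5 fell at 600 mOsm. Calls between the intensities went up for 5 genes and down for 5. The list had 16.7% of its genes called at 500 mOsm and 42.9% at 600 mOsm, beside 28.0% and 35.1% of all genes. These counts were 1 at 500 mOsm without iso-osmolar replicate 3 and 8 at 600 mOsm without 600 mOsm replicate 1. Serpinh1, the collagen chaperone HSP47, rose from 384 to 445 FPKM at 600 mOsm (log2 fold change 0.23, SE 0.039, adjusted p = 0.000675), and the disulfide isomerase Pdia6 from 131 to 149 FPKM (0.20, adjusted p = 0.0042). Ero1l, an oxidase that recharges disulfide isomerases, fell from 5.98 to 4.30 FPKM (log2 fold change -0.46, adjusted p = 0.000991). At 500 mOsm Creld1 rose from 2.77 to 4.07 FPKM (0.56, adjusted p = 0.000935) and Fkbp9, a prolyl isomerase, from 69.1 to 78.1 FPKM (0.18, adjusted p = 0.0107). Fkbp9 was also called higher at 600 mOsm (0.13, adjusted p = 0.0488), and Serpinh1 at 500 mOsm (0.12, adjusted p = 0.045). Erp29 fell from 17.4 to 15.0 FPKM at 500 mOsm (-0.21, adjusted p = 0.0105). Dnajb11, another J-protein partner of BiP, was lower at 600 than at 500 mOsm, at 51.3 against 58.9 FPKM (-0.18, adjusted p = 0.00631).

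Of 29 ER-associated degradation genes tested, 5 were lower at 500 mOsm and none was higher. At 600 mOsm 7 genes were lower and 3 higher, and the step between the intensities had 5 lower and 2 higher calls. The ligase gene Syvn1, which encodes HRD1, fell from 10.9 to 8.82 FPKM at 500 mOsm (log2 fold change -0.31, SE 0.067, adjusted p = 0.00379). It was also called lower at 600 mOsm (-0.19, adjusted p = 0.0441). Sel1l, the partner of HRD1, fell from 6.72 to 4.79 FPKM at 600 mOsm (log2 fold change -0.47, SE 0.07, adjusted p = 0.000255), as did the ligase March6, from 14.2 to 8.86 FPKM (-0.66, adjusted p = 4.78e-05). Os9, a lectin of the same complex, rose from 19.8 to 23.3 FPKM at 600 mOsm (0.26, adjusted p = 0.00217). At 500 mOsm Rnf139, a ligase gene, fell from 9.25 to 6.62 FPKM (-0.48, adjusted p = 0.000308). It was at 8.76 FPKM at 600 mOsm, where it did not pass against iso-osmolar cells (-0.06, adjusted p = 0.579) and was higher than at 500 mOsm (0.42, adjusted p = 0.00097). Ubxn8 fell from 5.08 to 3.69 FPKM at 500 mOsm (-0.45, adjusted p = 0.0036) and to 3.87 FPKM at 600 mOsm (-0.37, adjusted p = 0.0115).

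Of 33 translocation and export genes tested, 1 was called at 500 mOsm, lower. The 600 mOsm calls against iso-osmolar cells were 8 higher and 5 lower, and those against 500 mOsm 6 higher and 4 lower. The genes of the COPII cargo adaptors Sec24a and Sec24b fell at 600 mOsm, Sec24b from 21.9 to 11.1 FPKM (log2 fold change -0.96, SE 0.066, adjusted p = 3.51e-07) and Sec24a from 6.70 to 3.61 FPKM (-0.88, adjusted p = 1.14e-05). Their coat partner Sec23b rose from 22.8 to 27.3 FPKM (0.28, adjusted p = 0.00103), and Sec13 was higher at 600 than at 500 mOsm, at 333 against 296 FPKM (0.19, adjusted p = 0.00294). At 500 mOsm the single call was Sec24b (-0.23, adjusted p = 0.0163).

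IRE1 can also cut a group of other mRNAs, and 5 such decay targets were tested. At each intensity 2 were higher than in iso-osmolar cells and none was lower, and from 500 to 600 mOsm 2 were higher and 2 lower. Bloc1s1, the most widely used of these targets, rose from 0.84 ± 0.223 (SD, n = 3) to 2.05 ± 0.07 FPKM at 500 mOsm (log2 fold change 1.29, SE 0.273, adjusted p = 0.003) and was at 0.717 ± 0.199 FPKM at 600 mOsm. These levels are low, and with at least 10 counts asked of every library the decay targets had 1 call at 500 mOsm. Pdgfrb, also a fibroblast marker, rose from 49.2 to 55.3 FPKM at 500 mOsm (0.17, adjusted p = 0.00692) and to 59.4 FPKM at 600 mOsm (0.29, adjusted p = 0.000157). Col6a1 rose from 205 to 231 FPKM at 600 mOsm (0.19, adjusted p = 0.00347), and Scara3 was lower at 600 than at 500 mOsm (-0.28, adjusted p = 0.0265). Of 8 genes listed as outputs of the PERK arm, 3 were higher and 2 lower at 500 mOsm, and 3 higher and none lower at 600 mOsm. Between the intensities 5 were higher and 3 lower. The calls made up 62.5%, 37.5% and 100% of the list, beside 28.0%, 35.1% and 29.1% of all genes. The list was written with earlier results of these data known and holds Ppp1r15a, which the study itself reports. These shares therefore cannot show an excess over all genes. Between the intensities DESeq2 called 6 of the 8 genes. At rising osmolarity Ppp1r15a was at 7.95, 65.8 and 9.79 FPKM and Atf3 at 1.30, 10.6 and 1.98 FPKM. Ddit3, which encodes CHOP, was at 9.08, 8.68 and 14.5 FPKM. At 500 mOsm the log2 fold changes were 3.051 for Ppp1r15a (adjusted p = 1.01e-11) and 3.038 for Atf3 (adjusted p = 2.25e-08). Sesn2 fell there (-0.682, adjusted p = 0.000233), and Ddit3 was not called (-0.058, adjusted p = 0.744). Ddit3 rose at 600 mOsm (0.698, adjusted p = 0.000253). The study reports that the low-intensity induction of Ppp1r15a depended on TonEBP. The part of PERK in these changes was not tested.

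**Figure D5:**
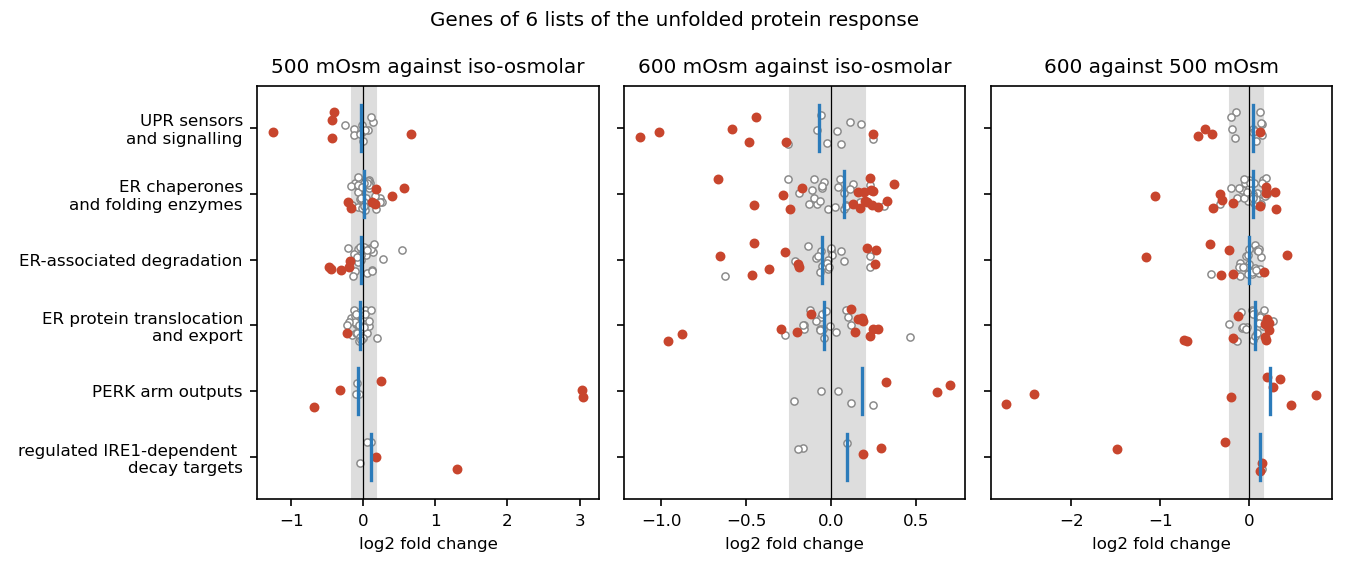
Log2 fold changes of the tested genes of 6 lists in the 3 comparisons, red where the adjusted p was under 0.05, with the median of each list as a blue bar and the middle 50% of all genes tested in grey. The horizontal scales differ between panels. The folding list has 13 red points to the right and 5 to the left at 600 mOsm against iso-osmolar, and the 2 far-left points of the export list there are Sec24a and Sec24b.

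Of the 17 tested genes with an ERSE in their window, Hspa5 and Hsp90b1 among them, 1 higher and 2 lower calls were made at 500 mOsm, 4 and 3 at 600 mOsm, and 2 and 3 between the intensities. Their median log2 fold changes were 0.06, 0.05 and 0.02. The 9 tested genes with an ERSE-II, Herpud1 among them, had 0, 3 and 1 called higher and 1, 0 and 2 called lower in the same comparisons. Their medians were 0.07, -0.06 and 0.10. Of all genes tested, 28.0%, 35.1% and 29.1% were called in these comparisons.

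The patterns most like those of the 3 genes with the largest changes were found by Pearson r of log2 CPM over the 9 libraries among 10310 genes, which describes likeness over 3 treatments only. Closest to Xbp1 were Per2 (r = 0.992), Lbh (r = 0.990) and Parvb (r = 0.990), and 385 genes had r over 0.9. The nearest to Dnajb9 were Wwc2 (r = 0.988), Nckap5 (r = 0.986) and 1810013L24Rik (r = 0.985), among 264 genes over 0.9. For Ern1 they were Fbf1 (r = 0.994), Snhg12 (r = 0.992) and Synj2 (r = 0.988), among 371.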

How the data were processed

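RNA-seq libraries of MEFs (3 per treatment) were sequenced by the authors. Per the labels, the submitters' processing notes name CASAVA 1.8, STAR and the mm10 build. The deposited table gives, for each library, raw read counts of every gene and the FPKM that the authors derived with the gene length. The FPKM values equalled counts per length and total within a relative difference of 5.0e-12. The table's columns of fold changes and p-values were not used. Whether counting used strand is not given in the sources used here.

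Counts were tested in R 4.3.3 with edgeR 4.0.16 (TMM factors 0.974 to 1.01, filterByExpr, quasi-likelihood test, all 9 libraries in one fit without a replicate block). The Benjamini-Hochberg adjustment covered 13082 genes, and the threshold was 0.05. The SE is the absolute log2 fold change divided by the square root of F. At these depths 3 counts equal 0.112 to 0.138 CPM, and the common biological coefficient of variation was 0.0756. An exact permutation test of 3 against 3 libraries cannot go below 0.1, so none was used. The fit was tested on simulated data.

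The genes and lists were chosen with earlier results of these data known. All 10 genes are named, and of each list up to 3 other genes per comparison with the smallest p. Matches to similar patterns left out genes whose average log2 CPM was under 1. Alternatives were DESeq2 1.42.0, limma 3.58.1 on log2(FPKM + 1) or log2(FPKM + 0.1), RLE factors, library size alone, no filter, at least 10 counts in every library, only the groups compared, a replicate block and each library left out. Added after seeing the data were a loess correction (span 0.5) for GC content and length, the same with the block, and a fit of 6 libraries without iso-osmolar replicate 3, 500 mOsm replicate 1 and 600 mOsm replicate 2, which had the most negative GC slopes in their treatments. The loess was fitted to each library's deviation from the mean of all libraries, not of its treatment. It therefore also takes out any treatment difference that follows GC content or length. Shared sequence was searched with blastn (at least 100 bases at 95% identity). The listed genes not tested were Ern2, Cdnf, Fam8a1 and Srp54a.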

Additional observations from a re-analysis of the deposited data

Results flagged for a closer look

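For 4 of the 10 genes the effects of 500 and 600 mOsm, each taken against the same iso-osmolar libraries, differed from each other by the test of 600 against 500 mOsm. The log2 difference between the intensities was -1.06 for Dnajb9 (adjusted p = 6.48e-05), -0.41 for Hspa5 (adjusted p = 0.000682), -0.23 for Edem1 (adjusted p = 0.00908) and -0.18 for Herpud1 (adjusted p = 0.0124). Every 600 mOsm library was below every 500 mOsm library for these 4 genes. They were picked by that same test, so this separation adds no support. On the CPM scale the libraries of the 2 intensities also did not overlap for Atf6, which was lower, and Pdia4, which was higher, both without a call. The share of all genes without such overlap was not computed. The share of all genes with a lower call in that comparison was 17.2%.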

How the results depend on the processing

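Over all alternatives the log2 fold changes of the 10 genes kept their direction and their side of the threshold 568 times, lost a call 22 times, gained one 18 times and changed sign 22 times. The calls of Xbp1 and Ern1 against iso-osmolar cells, of Dnajb9 at 600 mOsm in both comparisons and of Hspa5 between the intensities held in all 21 alternatives each. Beside the losses given above, Dnajb9 at 500 mOsm lost its call with limma at a pseudocount of 0.1 (adjusted p = 0.0505) and, in 6 libraries, Dnajb9 at 500 mOsm (adjusted p = 0.159), Sdf2l1 at 600 mOsm (adjusted p = 0.0607) and Herpud1 between the intensities (adjusted p = 0.0706) lost theirs. Where no cause is named, the cause was not tested.

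The GC content and length correction raised the number of the 10 genes called at 500 mOsm from 3 to 7 (6 with the replicate block), while the calls over all genes went from 3659 to 4525 (4016 with the block). Being fitted across treatments, the correction can shift fold changes as well as the spread between libraries. It turned the sign of Edem1 at 500 mOsm (0.010), of Atf6 at 600 mOsm (0.22) and, between the intensities, of Ern1 (0.040), Atf6 (0.035) and Sdf2l1 (-0.071). With the block added these were 0.011, 0.22, 0.039, 0.034 and -0.069. The export list had 5 calls at 500 mOsm with the correction and 2 with the block added, and the degradation list then had 3.

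Replicate numbers gave no sign of pairing the libraries. Deviations of same-numbered libraries had a mean correlation of -0.24 over 9 pairs, with a range of -0.69 to 0.61. The mean was 0.12 over 18 differently numbered pairs, and 2 libraries correlated best with their own number. Deviations from a treatment mean cancel within the treatment, so these means are tied to each other and cannot exclude pairing. With the replicate block the 10 genes had 2, 5 and 4 calls, all lower, and 3111, 3798 and 3089 genes were called in all. Dnajb9 at 500 mOsm (adjusted p = 0.0639) and Sdf2l1 at 600 mOsm (adjusted p = 0.0515) then lost their calls, the folding list had 3 calls at 500 and 10 at 600 mOsm, the degradation list 3 at 500 mOsm, and the decay targets 1 between the intensities.

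Without a filter the export list had 3 calls and the decay targets 1 at 500 mOsm. With at least 10 counts in every library, which leaves fewer genes to test, the decay targets had 1 at 500 mOsm and 2 between the intensities, and with only the groups compared 2 between the intensities. DESeq2 made 4 calls in the folding list at 500 mOsm. In 6 libraries, a fit of fewer samples, the calls at 500 mOsm were 2 in the folding list, 3 in degradation, 0 in export and 1 in the decay targets. The export list had 8 at 600 mOsm, and between the intensities the folding list had 5, degradation 4, export 6 and the decay targets 2.

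When 1 library was left out, calls at 500 mOsm ranged from 1 to 8 in the folding list, 3 to 7 in degradation and 0 to 4 in export, with the lowest without iso-osmolar replicate 3 for folding, without iso-osmolar replicate 1 or 500 mOsm replicate 1 for degradation and without 500 mOsm replicate 1 for export. At 600 mOsm they ranged from 8 to 18 in the folding list and 8 to 14 in export, and between the intensities from 6 to 11 in the folding list and 1 to 4 in the decay targets. Log2 fold changes of Hsp90b1 ranged from -0.16 to 0.23 at 500 mOsm, -0.054 to 0.25 at 600 mOsm and -0.11 to 0.23 between them. Those of Pdia4 at 500 mOsm ranged from -0.11 to 0.0046, of Atf6 at 600 mOsm from -0.088 to 0.018 and of Sdf2l1 between the intensities from -0.048 to 0.12. Dnajb9 had the smallest counts of the set, 111 to 130 at 600 mOsm. Its SE at 600 mOsm against iso-osmolar cells was 0.135, below the 0.165 of Hsp90b1. The part of depth in the changed calls was not tested.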
